A study of Mus musculus with 8 samples.

Results

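The genes described here are the 3 members of the Gadd45 family (Gadd45a, Gadd45b and Gadd45g), the tumour suppressor gene Trp53 and 6 genes known as targets of its protein p53 (Mdm2, Ccng1, Btg2, Sesn2, Pmaip1 and Bbc3). They were chosen by name, and of the 10 genes 9 were measured, among 19937 genes with a single symbol. Trp53 itself was not analysed here. RNA from NMuMG, an epithelial line of the mouse mammary gland, had been hybridised to Affymetrix arrays. The cells carried, after stable transfection, either a vector with major satellite sequences, the tandem repeat of mouse pericentromeric heterochromatin, or a control vector. Each kind of cell was taken after 8 h of TGFbeta or untreated at 0 h, with 2 arrays in each of 4 groups: major satellite with TGFbeta, major satellite untreated, control vector with TGFbeta and control vector untreated. All groups therefore carried a vector, the labels do not say whether a line was a single clone or a pool, and nothing says that the 2 arrays of a group came from separate cultures, so every p-value here rests on array-to-array spread that may be technical.

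p53 is a transcription factor that is stabilised by DNA damage and other stress, and it raises the transcription of genes that halt the cell cycle, repair DNA or start apoptosis. The Gadd45 proteins are small, related stress proteins that bind the kinase Map3k4 (MEKK4, upstream of p38 and JNK) and the replication clamp PCNA. Gadd45a is a classical p53 target, while Gadd45b and Gadd45g are also known as early genes of TGFbeta, cytokine and NF-kappaB signalling. TGFbeta arrests most epithelial cells in G1 and drives NMuMG cells toward a mesenchymal form.

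After TGFbeta, Gadd45a rose 5.05-fold and Gadd45g 2.69-fold on the average of both vectors, and Sesn2 fell to 0.694 of its untreated level, a call that without the replicate number in the model depended on the normalization. Gadd45b was higher (1.62-fold on average) and Btg2 lower (0.645 of its untreated level), but they passed the test only when the model held the replicate number. Every measured member kept the same sign of the TGFbeta difference in all pairs of arrays. The share of all genes that did so was not counted. Bbc3 was lower and also passed only with that number in the model (adjusted p = 0.0449, limma). Mdm2, Ccng1 and Pmaip1 passed in neither model. Within a single vector, only Gadd45a passed without the replicate number in the model. No member passed in any comparison of the vectors.

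The 5 genes with the largest average differences after TGFbeta were Gadd45a, Gadd45g, Gadd45b, Btg2 and Sesn2, and their promoter windows are shown so that the sequence next to each start site can be read beside the values. Each window runs from 250 bases before to 50 bases after the annotated start, 5′ to 3′ on the strand of the gene, from RefSeq (GRCm38.p6). Capitals mark matches, on either strand, to 4 motifs: the p53 half-site consensus, the Smad box CAGAC, the CCAAT box and the cAMP response element TGACGTCA. Of the 10 symbols, 9 matched an entry in the RefSeq table (Pmaip1 did not). The windows lie at chr6:67037358-67037657 (minus strand) for Gadd45a, chr10:80929841-80930140 (plus strand) for Gadd45b, chr13:51846425-51846724 (plus strand) for Gadd45g, chr1:134079106-134079405 (minus strand) for Btg2 and chr4:132510407-132510706 (minus strand) for Sesn2.
Gadd45a: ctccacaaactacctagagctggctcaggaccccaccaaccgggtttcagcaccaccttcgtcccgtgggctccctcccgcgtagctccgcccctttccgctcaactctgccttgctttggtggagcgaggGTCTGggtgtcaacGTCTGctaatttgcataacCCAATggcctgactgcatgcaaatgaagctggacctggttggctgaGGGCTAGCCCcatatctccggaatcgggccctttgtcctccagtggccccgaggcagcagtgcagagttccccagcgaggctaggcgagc
Gadd45b: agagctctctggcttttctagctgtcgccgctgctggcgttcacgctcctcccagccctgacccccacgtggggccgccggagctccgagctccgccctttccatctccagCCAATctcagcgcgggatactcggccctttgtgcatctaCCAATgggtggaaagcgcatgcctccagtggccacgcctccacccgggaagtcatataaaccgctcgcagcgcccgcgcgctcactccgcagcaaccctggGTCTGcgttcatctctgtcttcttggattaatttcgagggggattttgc
Gadd45g: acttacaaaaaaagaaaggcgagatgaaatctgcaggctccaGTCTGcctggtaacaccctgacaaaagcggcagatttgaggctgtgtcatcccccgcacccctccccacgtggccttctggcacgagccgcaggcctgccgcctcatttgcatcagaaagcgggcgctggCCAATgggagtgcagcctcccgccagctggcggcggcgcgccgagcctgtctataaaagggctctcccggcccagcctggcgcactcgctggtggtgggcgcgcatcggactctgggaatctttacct
Btg2: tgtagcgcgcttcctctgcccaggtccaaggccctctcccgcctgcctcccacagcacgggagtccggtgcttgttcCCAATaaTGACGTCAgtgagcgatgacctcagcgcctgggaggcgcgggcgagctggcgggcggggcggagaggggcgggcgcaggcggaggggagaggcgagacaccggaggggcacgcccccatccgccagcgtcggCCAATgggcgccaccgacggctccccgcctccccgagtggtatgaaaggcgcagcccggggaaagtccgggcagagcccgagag
Sesn2: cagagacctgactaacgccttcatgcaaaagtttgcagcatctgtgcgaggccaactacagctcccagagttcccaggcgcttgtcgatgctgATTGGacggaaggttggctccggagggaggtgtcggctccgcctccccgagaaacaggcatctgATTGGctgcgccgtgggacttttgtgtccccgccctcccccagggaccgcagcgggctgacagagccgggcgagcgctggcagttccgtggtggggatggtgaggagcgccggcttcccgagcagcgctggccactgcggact

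Among these windows a p53 half-site match stood only in that of Gadd45a, at positions -40 to -31 from the start, where position 1 is the first base of the transcript. Of the measured members not shown, Mdm2 (-186 to -177) and Ccng1 (-185 to -176), which passed in neither model, also had a match. The half-site pattern occurred in 8.36% of 32851 RefSeq promoter windows of this length. Smad boxes, which 49.6% of windows hold, stood in the Gadd45a window at -119 to -115 and -105 to -101, in the Gadd45b window at 2 to 6 and in the Gadd45g window at -208 to -204, each on the opposite strand. All 5 windows held a CCAAT box, as 37.4% of windows do. The Btg2 window alone held TGACGTCA, at -166 to -159, which 1.79% of windows hold. A match is a run of letters and not a measured binding site, and a window without one says nothing about the factor. All 5 windows were rich in G and C, at 61% for Gadd45a, 62% for Gadd45b, 62.3% for Gadd45g, 72% for Btg2 and 64.7% for Sesn2.

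The deposited values were log2 expression per probeset. Each array title ended in 1 of 2 codes, both present once per group, by which arrays are called number 1 or number 2. The median value of an array was 7.88 to 7.92 in number 2 and 7.72 to 7.76 in number 1. Differences were tested with limma, once with only the 4 group means and once with a further term for the replicate number, called blocked. Adjusted p is Benjamini-Hochberg over all 19937 genes, and a gene passed under 0.05. As a check of the treatment, Has2 (hyaluronan synthase) was higher after TGFbeta by 3.19 ± 0.18 log2 (SE) and the inhibitory Smad7 by 1.20 ± 0.10, with adjusted p of 0.00126 and 0.00242. Of the epithelial markers, the keratins Krt8 (14.19 to 14.42) and Krt18 (13.50 to 13.95) and the cadherin Cdh1 (12.72 to 13.16) were high on every array, while Epcam (6.53 to 7.16) and Cldn7 (6.70 to 7.03) were low. Of all genes, 2.57% rose and 2.25% fell on the average of both vectors, and blocked 11.2% rose and 13.1% fell. The counts of both marker lists below stand beside these shares. Of 8 epithelial markers, 1 fell after TGFbeta (Krt19, by 0.74, adjusted p = 0.0178, limma), and blocked 3 rose as well: Krt7 by 0.82 (adjusted p = 0.000522), Epcam by 0.39 (adjusted p = 0.00981) and Cldn3 by 0.31 (adjusted p = 0.0261). Their summed level was 15.62 to 15.73 log2 on the TGFbeta arrays and 15.63 to 15.82 on the untreated arrays, and TGFbeta minus untreated lay between -0.13 and -0.01 in the 4 pairs of arrays. Of 10 markers of blood, endothelium and fibroblasts, 1 rose after TGFbeta (Pdgfra, by 0.66, adjusted p = 0.0281, limma), and blocked 3 rose, with Pdgfrb by 0.29 (adjusted p = 0.00778) and Cdh5 by 0.30 (adjusted p = 0.00783). Their summed level was 10.42 to 10.72 log2 on the TGFbeta arrays and 10.24 to 10.57 on the untreated arrays, and it was higher with TGFbeta in all 4 pairs, by 0.12 to 0.19. The part of either marker list in the results below was not tested. In RNA from whole cultures, fewer cells of a type and less RNA per cell cannot be told apart.

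**Figure D1:**
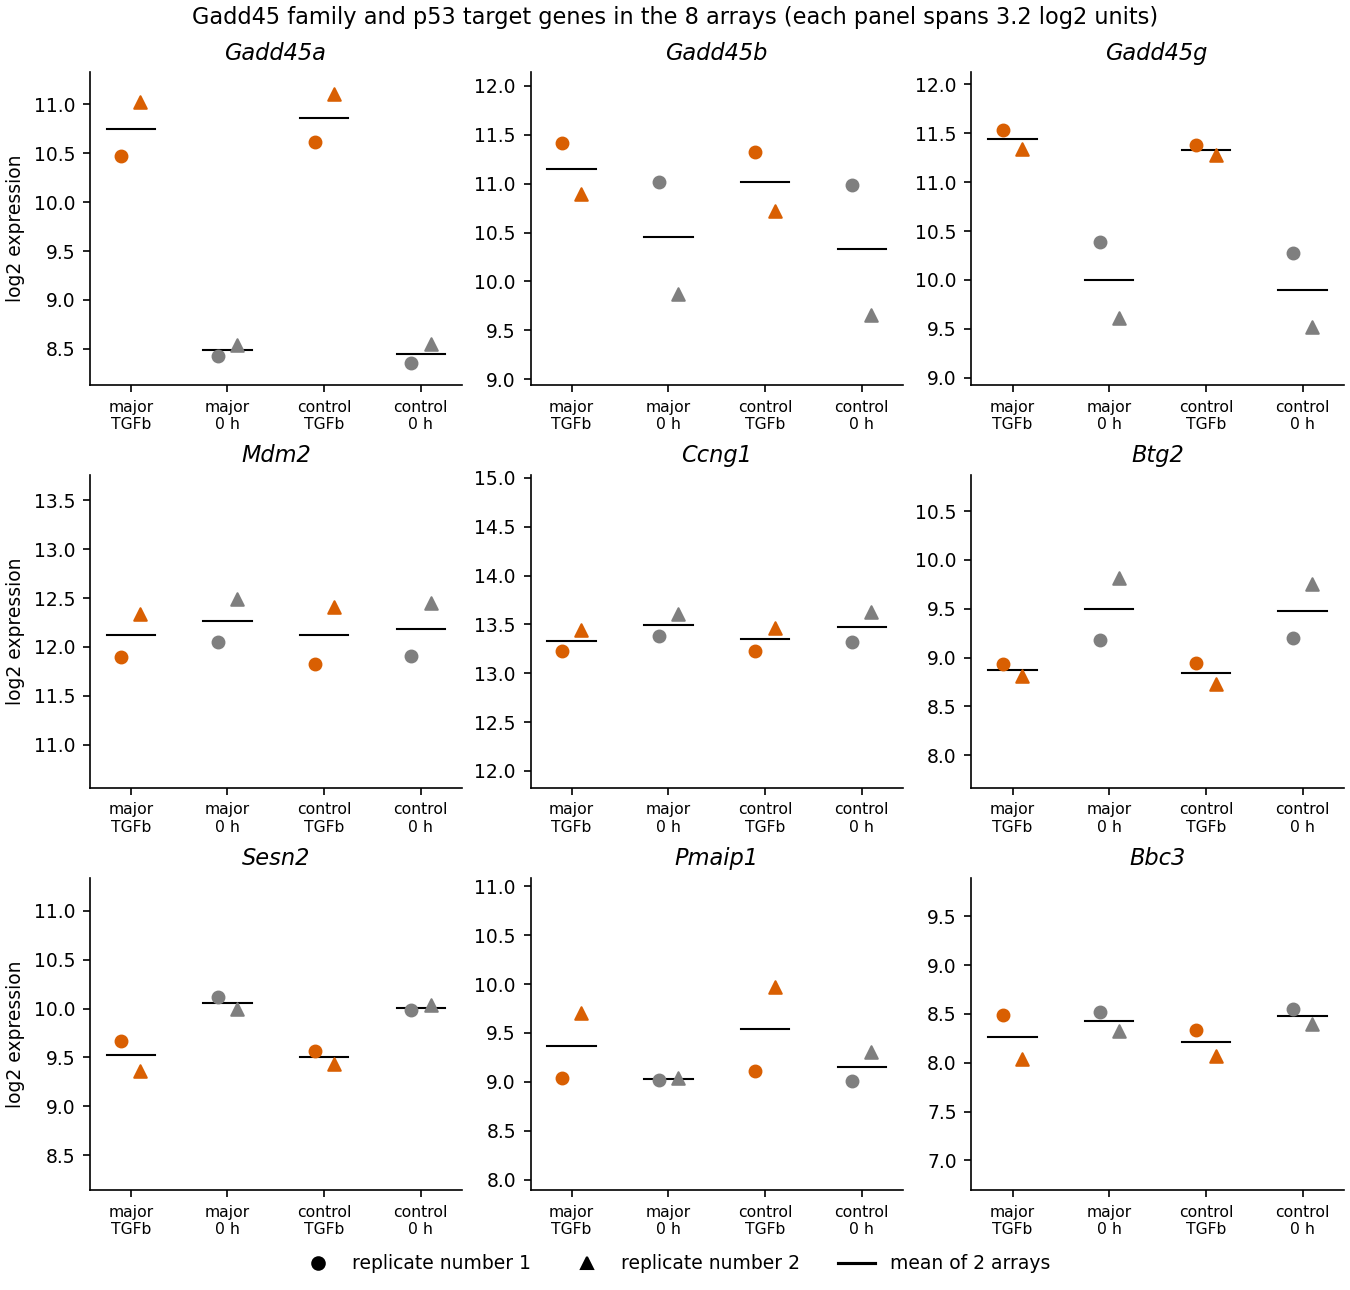
Log2 expression (vertical axis, a span of 3.2 units in every panel) of the 9 measured genes on each of the 8 arrays, by group, with TGFbeta arrays in orange and untreated arrays in grey. Circles are number 1, triangles number 2 and bars the mean of 2 arrays. Gadd45a and Gadd45g on all 4 TGFbeta arrays lie above all 4 untreated arrays, Btg2 and Sesn2 lie below, and the 2 vectors lie close together for every gene.

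Gadd45a, the family member most tied to p53, stood at 10.47 and 11.03 log2 in major satellite cells with TGFbeta, against 8.43 and 8.54 in untreated major satellite cells. In control vector cells it stood at 10.62 and 11.11 with TGFbeta, against 8.35 and 8.55 untreated. Every TGFbeta array was thus far above every untreated array, and the gap between treatments exceeded the gap between the 2 arrays of any group. On the average of both vectors Gadd45a rose by 2.34 ± 0.17 log2 (SE, 4 TGFbeta arrays against 4 untreated, 95% interval 1.93 to 2.74, adjusted p = 0.00188, limma). It rose by 2.26 ± 0.24 in major satellite cells (adjusted p = 0.0199, limma) and by 2.41 ± 0.24 in control vector cells (adjusted p = 0.0142, limma). The averaged rise passed whichever single array was left out, with adjusted p from 0.00852 to 0.0126 in limma. Without the block, the rise within a vector missed the threshold when any 1 of the 4 arrays of that vector was left out. Its size in such fits was 1.98 to 2.54 in major satellite cells and 2.17 to 2.66 in control vector cells. In the blocked model these ranges were 2.10 to 2.42 and 2.31 to 2.52. With all 8 arrays, the blocked adjusted p was 5.16e-07 on average, 1.32e-05 in major satellite cells and 1.04e-05 in control vector cells (limma).

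Gadd45g, known as a brake on the cell cycle in development and as a cytokine-responsive gene, stood at 11.53 and 11.34 in major satellite cells with TGFbeta, against 10.39 and 9.61 untreated. In control vector cells it stood at 11.38 and 11.28 with TGFbeta, against 10.28 and 9.52 untreated. The 4 TGFbeta arrays were close to each other, and the untreated arrays were spread more widely, yet the treatments did not overlap. Its average rise was 1.43 ± 0.23 (95% interval 0.88 to 1.98, adjusted p = 0.0204, limma; blocked 3.37e-05). The rise was 1.43 ± 0.32 within each vector, with adjusted p of 0.128 in major satellite cells and 0.132 in control vector cells (limma), and of 0.000593 and 0.000578 blocked. Without the block, the average rise passed in 2 of the 8 fits that left out 1 array (those without an untreated array of number 1), with adjusted p from 0.0247 to 0.0842, and with the block it passed in all 8.

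Gadd45b, a known early target of TGFbeta and Smad signalling that acts on p38, stood at 11.42 and 10.89 in major satellite cells with TGFbeta, against 11.02 and 9.87 untreated. In control vector cells it stood at 11.32 and 10.72 with TGFbeta, against 10.99 and 9.66 untreated. The treatments overlapped over all arrays, since the untreated arrays of number 1 were above the TGFbeta arrays of number 2, but within each number the TGFbeta array was the higher one in both vectors. The average difference was 0.70 ± 0.38 (95% interval -0.22 to 1.62, adjusted p = 0.532, limma), and in the blocked model 0.70 ± 0.13 (0.41 to 0.99, adjusted p = 0.00337). Blocked, it rose within each vector too, by 0.70 in major satellite cells (adjusted p = 0.0293) and by 0.69 in control vector cells (adjusted p = 0.0322). The blocked calls within a vector were lost when an array of number 2 was left out. Without an array of number 2 the blocked value in major satellite cells was 0.46 or 0.54, with adjusted p of 0.259 and 0.244, and that in control vector cells was 0.49 or 0.41, with adjusted p of 0.31 and 0.326. Without the untreated major satellite array of number 1 the value was 0.87 (adjusted p = 0.05).

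**Figure D2:**
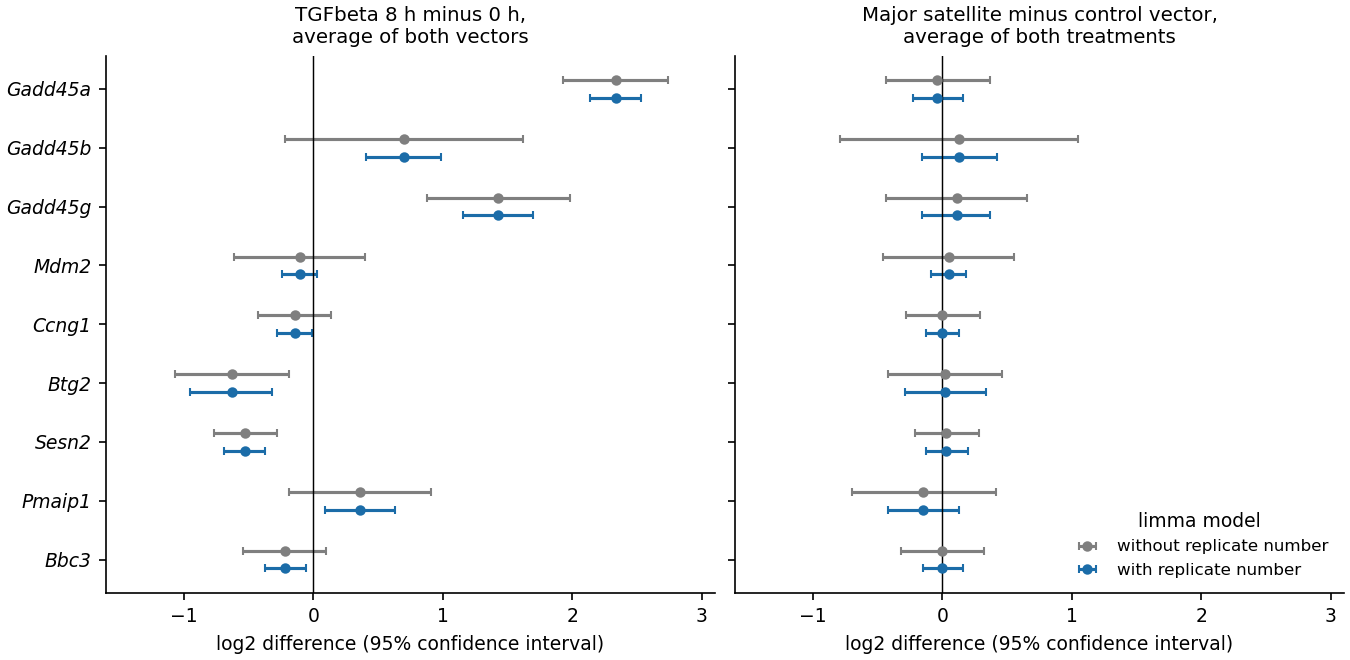
Average log2 differences with 95% confidence intervals for the 9 genes: TGFbeta minus untreated on the left, major satellite minus control vector on the right, from limma without (grey) and with (blue) the replicate number in the model. After TGFbeta the intervals of Gadd45a (2.34), Gadd45g (1.43), Btg2 (-0.63) and Sesn2 (-0.53) exclude 0 in both models. By adjusted p, Btg2 passed only in the blocked model. Every interval between vectors spans 0.

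Sesn2, a stress-inducible inhibitor of mTORC1 signalling, stood at 9.67 and 9.36 in major satellite cells with TGFbeta, against 10.12 and 10 untreated. In control vector cells it stood at 9.57 and 9.43 with TGFbeta, against 9.98 and 10.04 untreated. All TGFbeta arrays were below all untreated arrays. The average difference was -0.53 ± 0.10 (95% interval -0.77 to -0.28, adjusted p = 0.0383, limma; blocked 0.000633). The call without the block was lost under quantile normalization (adjusted p = 0.101), subtracted array medians (adjusted p = 0.167) and an intensity trend (adjusted p = 0.0741, limma). Within a vector it fell only in the blocked model, where adjusted p was 0.00658 in major satellite cells and 0.00953 in control vector cells. That call was lost without any 1 of 3 of the vector's 4 arrays, at adjusted p of 0.0516 to 0.0687 in major satellite cells and 0.0606 to 0.122 in control vector cells. Without the block, the average fall missed the threshold in 7 of the 8 fits that left out 1 array (adjusted p 0.0496 to 0.145, kept without the TGFbeta array of number 1 in major satellite cells), and with the block it passed in all 8.

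Btg2, an antiproliferative gene of the BTG/TOB family, stood at 8.93 and 8.81 in major satellite cells with TGFbeta, against 9.18 and 9.81 untreated. In control vector cells it stood at 8.95 and 8.73 with TGFbeta, against 9.20 and 9.75 untreated. The TGFbeta arrays were all lower than the untreated arrays, by a small step in number 1 and a larger one in number 2. Within a vector Btg2 passed in neither model, with blocked adjusted p of 0.0635 in major satellite cells and 0.0655 in control vector cells (limma). The average difference was -0.63 ± 0.18 (95% interval -1.07 to -0.19, adjusted p = 0.14, limma), and it passed in the blocked model (adjusted p = 0.00912). The blocked call was lost without the untreated control vector array of number 2 (adjusted p = 0.0501) or the major satellite TGFbeta array of number 2 (adjusted p = 0.0515).

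The proapoptotic pair of BH3-only genes gave no call without the block. Bbc3, which encodes Puma, stood at 8.49 and 8.04 in major satellite cells with TGFbeta, against 8.52 and 8.33 untreated, and at 8.34 and 8.07 in control vector cells with TGFbeta, against 8.55 and 8.40 untreated. The treatments overlapped, and the average difference was -0.22 ± 0.13 (adjusted p = 0.602, limma). The blocked adjusted p was 0.0449, and it stayed under 0.05 in 1 of 8 fits that left out an array, with a range of 0.0186 to 0.177. Pmaip1, which encodes Noxa, stood at 9.04 and 9.70 in major satellite cells with TGFbeta, against 9.02 and 9.04 untreated. In control vector cells it stood at 9.11 and 9.97 with TGFbeta, against 9.01 and 9.30 untreated. Its TGFbeta arrays of number 2 stood above the other arrays, those of number 1 did not, and the average difference of 0.36 ± 0.23 passed in neither model (adjusted p = 0.634 in limma, 0.0602 blocked).

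Mdm2 and Ccng1, both direct p53 targets that act back on it, the first as the ubiquitin ligase that degrades p53 and the second as cyclin G1, had high levels that moved little. Mdm2 stood at 11.90 and 12.34 in major satellite cells with TGFbeta, against 12.05 and 12.49 untreated, and at 11.83 and 12.41 in control vector cells with TGFbeta, against 11.91 and 12.45 untreated. Ccng1 stood at 13.23 and 13.44 in major satellite cells with TGFbeta, against 13.38 and 13.61 untreated, and at 13.23 and 13.46 in control vector cells with TGFbeta, against 13.32 and 13.63 untreated. For both genes the treatments overlapped, and the 2 arrays of a group were farther apart than the treatments. Within each number both genes were lower with TGFbeta in both vectors. TGFbeta minus untreated lay between -0.15 and -0.05 for Mdm2 and between -0.17 and -0.09 for Ccng1. The average difference was -0.10 ± 0.21 for Mdm2 and -0.14 ± 0.12 for Ccng1, with adjusted p of 0.932 and 0.759 in limma and of 0.259 and 0.11 blocked. The blocked 95% intervals were -0.24 to 0.03 for Mdm2 and -0.28 to -0.01 for Ccng1.

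Of the 9 members, 2 rose and 1 fell in the average TGFbeta response, where 2.57% of all genes rose and 2.25% fell. In the blocked model 3 members rose and 3 fell, where 11.2% of all genes rose and 13.1% fell. Within the major satellite cells 1 member rose and 0 fell (0.682% and 0.411% of all genes), and blocked 3 rose and 1 fell (6.89% and 8.38%). Within the control vector cells 1 rose and 0 fell (0.707% and 0.366%), and blocked 3 rose and 1 fell (6.92% and 7.63%). Over the arrays, the 4 TGFbeta and 4 untreated values did not overlap for 2 members that were higher (7.38% of all genes) and 2 that were lower (7.37%). The median average difference of the members was -0.10, beside 0.02 over all genes.

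The vectors were compared to see whether major satellite sequences went with other levels of these genes or another response to TGFbeta. On the average of both treatments, major satellite minus control vector lay between -0.15 (Pmaip1) and 0.13 (Gadd45b), and 0 of 9 members passed in limma in either model, where 0.01% of all genes passed and 0.0853% did so blocked. None of the 9 had an unadjusted p under 0.05 in either model, where 110 of all 19937 genes did, and 1071 blocked. For all 9 genes the 4 major satellite arrays overlapped the 4 control vector arrays, while 0.336% of all genes were higher and 0.411% lower without overlap. At 0 h the differences lay between -0.12 and 0.12 and with TGFbeta between -0.17 and 0.13. For both, 0 of 9 members passed in either model, where 0.00502% of all genes passed and 0.0301% did so blocked. No member had an unadjusted p under 0.05 there in either model. Of all 19937 genes, 86 did at 0 h and 85 with TGFbeta, and blocked 654 and 1298. The TGFbeta response in major satellite cells minus that in control vector cells lay between -0.16 (Gadd45a) and 0.10 (Bbc3). For that difference 0% of all genes passed in either model. An unadjusted p under 0.05 was reached by 44 of 19937 genes, and by 658 blocked. Both counts are below what that threshold lets through when no gene differs, while the blocked counts for the vectors on average and with TGFbeta are above it. Without the block, the spread used by the test also holds the difference between numbers. A low count there does not show that the responses were alike. The 95% intervals of the members hold for 1 gene each and rest on array spread that may be technical. For the average difference between vectors they lay within -0.42 and 0.42 blocked, and within -0.79 and 1.05 without the block. For the difference of the responses they lay within -0.63 and 0.63 blocked, and within -1.83 and 1.86 without the block. Pair by pair, major satellite minus control vector had the same sign in all 4 pairs of arrays for Gadd45g (0.06 to 0.15) and Gadd45b (0.04 to 0.21), but neither passed, and the signs were mixed for the other members. The blocked average differences, 0.11 ± 0.12 for Gadd45g and 0.13 ± 0.13 for Gadd45b, were about as large as their SE. The share of all genes with the same sign in all 4 pairs was not counted.

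**Figure D3:**
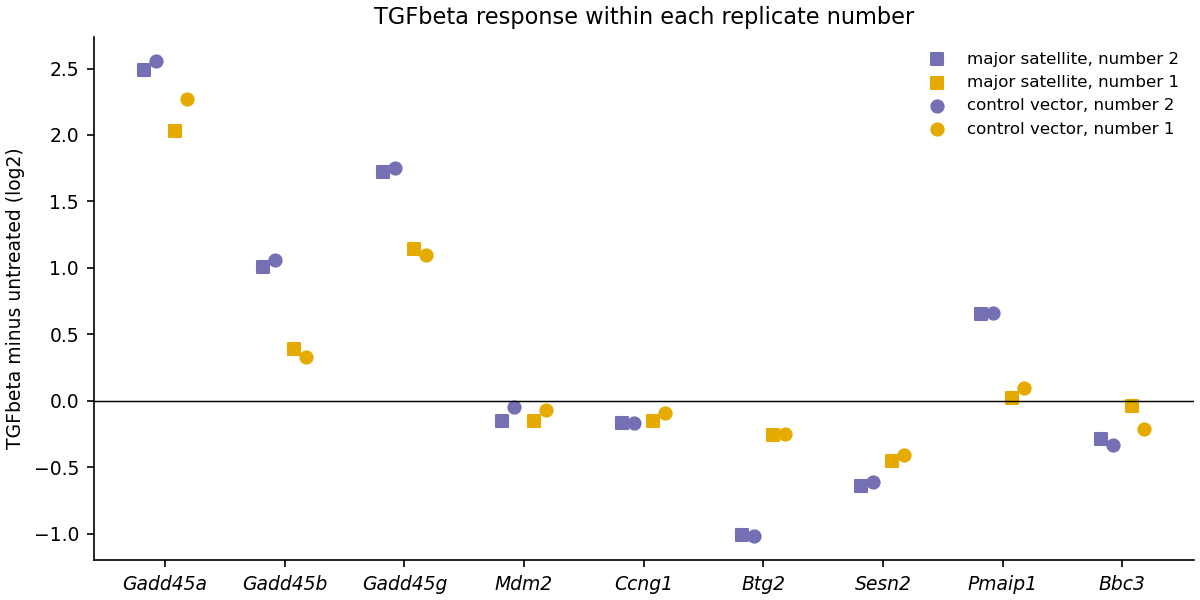
TGFbeta minus untreated (log2, vertical axis) for each gene within replicate number 2 (purple) and number 1 (yellow), for major satellite cells (squares) and control vector cells (circles). Btg2 stands near -1.01 in number 2 and near -0.25 in number 1 in both vectors.

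For Gadd45b, Gadd45g and Btg2 the 2 vectors gave close TGFbeta responses within a replicate number, and the 2 numbers lay farther apart. Gadd45b differed from its untreated level by 1.01 in major satellite cells and 1.06 in control vector cells in number 2, and by 0.39 and 0.33 in number 1. Gadd45g differed by 1.72 and 1.75 in number 2, and by 1.14 and 1.10 in number 1. Btg2 differed by -1.01 and -1.02 in number 2, and by -0.26 and -0.25 in number 1, the vectors being given in the same order. These responses were set against each other after the data had been seen, in a limma model with a term for treatment by number. Each number held 1 array per vector and treatment. The SE therefore rests on how far the 2 vectors differed, and not on repeats of a number. The response in number 2 minus that in number 1 was -0.76 ± 0.12 for Btg2, which passed (adjusted p = 0.0423), where 0.391% of all genes passed. It was 0.67 ± 0.13 for Gadd45b (adjusted p = 0.075), 0.62 ± 0.12 for Gadd45g (adjusted p = 0.0849), 0.60 ± 0.14 for Pmaip1 (adjusted p = 0.158) and 0.37 ± 0.12 for Gadd45a (adjusted p = 0.365), and the other 4 had an adjusted p of 0.759 or more. The untreated levels also differed by number. Untreated arrays of number 2 were lower than those of number 1 by a log2 difference of -1.24 ± 0.09 for Gadd45b (adjusted p = 1.37e-05) and of -0.77 ± 0.09 for Gadd45g (adjusted p = 0.000151). They were higher by 0.59 ± 0.09 for Btg2 (adjusted p = 0.000735), 0.50 ± 0.09 for Mdm2 (adjusted p = 0.00209) and 0.27 ± 0.09 for Ccng1 (adjusted p = 0.032), all in limma, where 39.5% of all genes passed. The medians of the untreated arrays were 7.92 and 7.9 in number 2 and 7.75 and 7.72 in number 1. These differences between numbers were not adjusted for that offset. What the 2 codes stand for is not stated in the labels, and its part in these values was not tested.

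A list of 40 further p53 target genes, of which 36 were measured, held genes that passed in either direction after TGFbeta and more that did not pass. Without the block 3 rose, 2 fell and 31 did not pass, where 2.57% of all genes rose and 2.25% fell. Ak1 (adenylate kinase) rose by 1.99 ± 0.09 (adjusted p = 0.000965), Ddit4 (an inhibitor of mTORC1, also known as Redd1) by 1.69 ± 0.15 (adjusted p = 0.00304) and Dram1 (an autophagy regulator) by 1.44 ± 0.12 (adjusted p = 0.0028, limma). The epoxide hydrolase Ephx1 fell by 0.63 ± 0.10 (adjusted p = 0.0227) and the death receptor Fas by 0.58 ± 0.11 (adjusted p = 0.0352, limma). In the blocked model 4 rose, 14 fell and 18 did not pass, where 11.2% of all genes rose and 13.1% fell. The largest fall there was in the receptor kinase Epha2, at -0.78 (adjusted p = 8.96e-05, limma). The median over the 36 genes was -0.10, beside 0.02 over all genes.

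**Figure D4:**
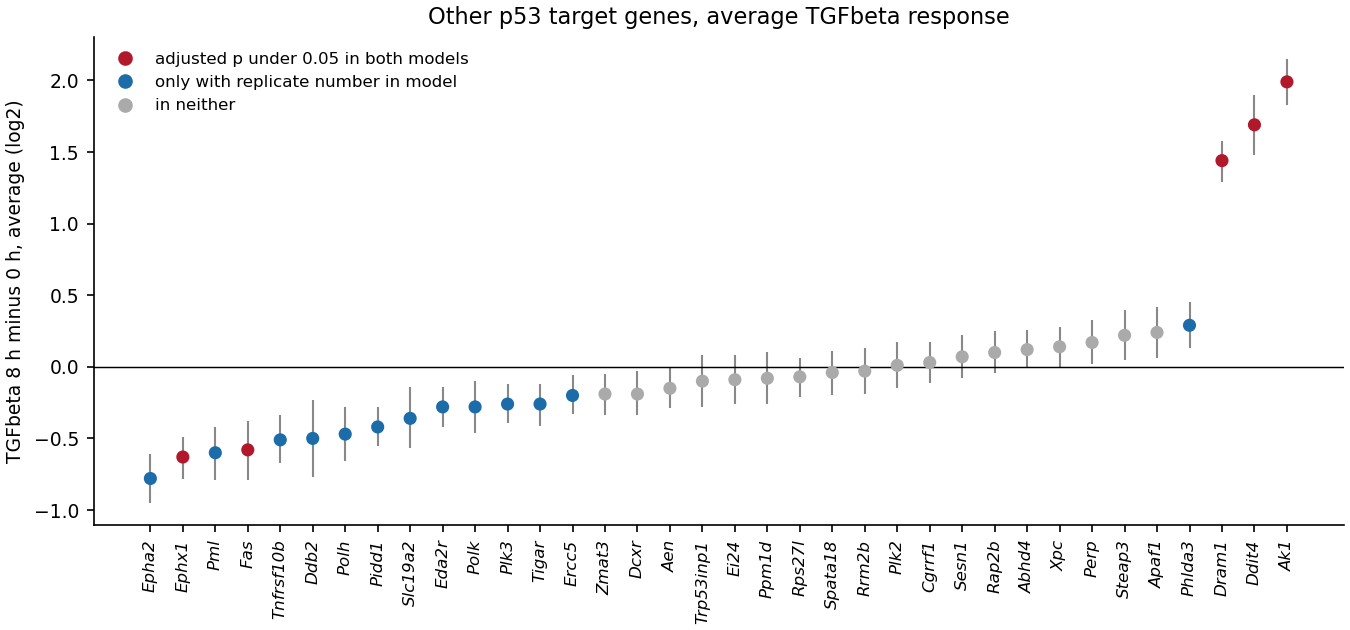
Average TGFbeta response (log2, vertical axis) of the 36 measured further p53 targets in order of size, with blocked 95% confidence intervals as bars. Red genes passed in both limma models, blue genes only with the replicate number in the model, grey genes in neither. Ak1, Ddit4 and Dram1 stand at 1.44 or above, and the falls reach -0.78.

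Among 22 measured genes of the p53 family and regulators of p53, 1 rose and 2 fell (all genes 2.57% and 2.25%). Blocked, 4 rose and 5 fell (all genes 11.2% and 13.1%), with a median of 0.01. Ppp1r13l, which encodes the p53 inhibitor iASPP, rose by 1.78 ± 0.23 (adjusted p = 0.0109). The checkpoint kinase gene Chek1 fell by 0.70 ± 0.12 (adjusted p = 0.0271), and Ppp1r13b, which encodes ASPP1, fell by 0.41 ± 0.08 (adjusted p = 0.0423, limma). The damage kinases Atm (-0.70) and Atr (-0.54) and the ASPP2 gene Trp53bp2 (0.44) passed only in the blocked model, at adjusted p of 0.000127, 0.000374 and 0.00112 in limma.

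Of 13 measured genes for binding partners and downstream kinases of the Gadd45 proteins, 0 passed without the block in limma, and blocked 2 rose and 1 fell, with a median of 0.01. These counts lie near the blocked shares of all genes, 11.2% higher and 13.1% lower. Without the block 1 of the 13 had an unadjusted p under 0.05, beside 2982 of all 19937 genes. Map3k4, the kinase that Gadd45 proteins bind and activate, was higher by 0.63 ± 0.22 (adjusted p = 0.237, blocked 0.000302, limma). The p38 kinase gene Mapk11 was higher by 0.32 ± 0.17 (adjusted p = 0.5, blocked 0.00392). Cdk1, the mitotic kinase that Gadd45a is known to inhibit, differed by -0.50 ± 0.23 (adjusted p = 0.409, blocked 0.00161).

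Beside Bbc3 and Pmaip1, 13 other genes of the Bcl2 family were measured, and 2 rose and 1 fell (all genes 2.57% and 2.25%), with 4 and 2 in the blocked model (all genes 11.2% and 13.1%) and a median of 0.03. The BH3-only genes Bmf and Bcl2l11 (Bim) rose by 1.30 ± 0.18 (adjusted p = 0.0133) and 0.89 ± 0.09 (adjusted p = 0.00428), and the survival gene Bcl2l1 (Bcl-xL) fell by 0.73 ± 0.13 (adjusted p = 0.0297, limma). Of 8 measured paralogs of Ccng1, Btg2 and Sesn2, 0 passed without the block in limma. An unadjusted p under 0.05 was reached there by 2 of the 8, beside 2982 of all 19937 genes. Blocked, 2 rose (Ccng2 at 0.70 and Ccni at 0.26) and 2 fell (Sesn3 at -0.35 and Tob1 at -0.32), with adjusted p of 0.00373, 0.0171, 0.009 and 0.00604 in limma, beside the same blocked shares of all genes. In the average difference between vectors 0 genes of these 5 lists passed in limma in either model. An unadjusted p under 0.05 was reached there by 2 of the 36 p53 targets and 1 of the 13 Bcl2 family genes without the block (110 of all 19937 genes), and by 2 of the 36 and 2 of the 13 blocked (1071 of all 19937).

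For the 3 members that passed without the block, the genes with the most similar course over the 8 arrays were found by the root mean square distance (log2 units) after each gene's mean over the 4 arrays of a number had been subtracted. Closest to Gadd45a were Sdc3 (syndecan 3, 0.0776), Sh3bp2 (an adaptor protein, 0.0824), Ctla2a (0.136), Itga5 (the fibronectin receptor subunit integrin alpha 5, 0.139) and Lmcd1 (0.142). Closest to Gadd45g were Plaat3 (0.0653), Adam8 (a membrane protease, 0.0972), Capg (an actin-capping protein, 0.104), Las1l (0.105) and Coro6 (0.112). Closest to Sesn2 were Tnfrsf10b (the death receptor for TRAIL and itself on the list of p53 targets, 0.0219), Dpy19l3 (0.024), Dclre1a (0.0284) and Rad18 (0.0294), both DNA repair genes, and Rbm34 (0.0313). These distances describe the 8 arrays and were not tested.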

How the data were processed

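The deposited table held log2 expression values for 34760 probesets on 8 arrays. Per the submitters' processing notes RMA and limma were used, while their versions, their roles and the build are not given in the sources used here. Left out were 1321 probesets with several symbols and 11799 without any. Symbols were updated through the RefSeq annotation of GRCm38.p6, and for the 954 genes with several probesets the one with the highest mean was used. Each measured member had 1 probeset.

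All 8 arrays were fitted together in limma 3.58.1 (R 4.3.3), with 4 group means and no block (4 residual degrees of freedom), or with the replicate number as a block (3). Tests were two-sided, and the code was tested on simulated data. The numbers come from the codes in the titles. Arrays of the same number deviated together from their group means, with correlations across genes of 0.758 to 0.874 between groups, so the numbers were taken to pair the arrays. Genes are not independent replicates.

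The members, lists and tests were chosen with earlier results of these data known. Named were all measured members, up to 6 genes per list that passed after TGFbeta (those passing without the block first, then by blocked p), up to 3 per list that passed between vectors, Smad7 and Has2, and the 5 nearest genes of each member that passed. The number of arrays limits the precision. Alternatives were quantile normalization, subtracted medians, a filter on low values, an intensity trend, other probesets, fewer groups and single arrays left out.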

Additional observations from a re-analysis of the deposited data

Results flagged for a closer look

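The response of Btg2 to TGFbeta differed between the 2 replicate numbers by a test of that difference, chosen after seeing the data. The response in number 2 minus that in number 1 was -0.76 log2 (SE 0.12, adjusted p = 0.0423 over 19937 genes, limma), with the larger fall in number 2 in both vectors. Of all genes, 78 passed the same test. Its SE rests on how far the 2 vectors differed, and not on repeats of a number. The arrays of number 2 also had the higher medians, at 7.88 to 7.92 against 7.72 to 7.76 in number 1, and the part of this in the result was not tested.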

How the results depend on the processing

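With the replicate block, the genes past the threshold numbered 3044 in place of 218 for TGFbeta in major satellite cells, 2901 in place of 214 in control vector cells and 4841 in place of 962 on average, and 17 in place of 2 between vectors on average, with 6 in place of 1 both at 0 h and at 8 h. With quantile normalization and the block, chosen after seeing the data, the counts were 2906, 2835, 4781, 18, 3 and 6 in the same order. Quantile normalization alone gave 84 in major satellite and 108 in control vector cells, subtracting array medians gave 66 and 87 (540 on average), an intensity trend gave 140 in major satellite cells, and fitting only the groups compared gave 0 and 0, and 0 between vectors at 0 h. The mean of probesets gave 1 between vectors on average. Without 1 array the counts were 0 to 82 (major satellite), 0 to 89 (control vector), 359 to 638 (average), 1 to 2 (between vectors), 0 to 1 at 0 h, 0 to 1 at 8 h and 0 to 0 for the difference of responses. With the block they were 1228 to 3020, 1202 to 3161, 3498 to 4860, 8 to 49, 2 to 9, 1 to 107 and 0 to 17 in that order.

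Gadd45a lost its call within a vector when only the groups compared were fitted (adjusted p = 0.0926 in major satellite and 0.121 in control vector cells, limma). Bbc3 lost its blocked call when quantile normalization was added (adjusted p = 0.0545, limma). Reversed signs came only from leaving out 1 array, for differences that had not passed: Mdm2 ranged from -0.37 to 0.07 (major satellite), -0.35 to 0.23 (control vector) and -0.25 to 0.04 (average), Ccng1 from -0.28 to 0.03 and Pmaip1 from -0.05 to 0.81 in control vector cells, and Bbc3 from -0.39 to 0.06 in major satellite cells. The cause was not tested. Over the 9 members and 3 TGFbeta comparisons, 525 alternative values kept direction and call, 77 newly passed, 26 lost the call and 11 changed sign.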
